A study of Mus musculus with 12 samples.

Results

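The integrin and laminin genes of the mouse were followed across 12 arrays. A gene was taken when its symbol matched Itga, Itgb, Lama, Lamb or Lamc followed by a digit. Of 35 such symbols, 31 had a named probe, out of 17178 symbols on the array, and they were read by 49 of its 41174 probes. They comprised 11 integrin alpha subunits, 8 beta subunits, 9 laminin chains and 3 proteins named for binding a beta subunit. Itga10, Itgb8, Lama3 and Lamc1 had no named probe and were not analysed here. Integrins whose symbol carries a letter in place of the digit, such as Itgav, lay outside this definition. All 31 genes were tested, and 30 of them were well above background on all 12 arrays, the exception being Itgb1bp2. By its title the study concerns the regeneration of organs in the living animal through a reprogramming of adult cells that depends on stroma, and it profiled messenger RNA in 4 groups of 3 arrays each. These were reprogrammed lung (replicates 1, 3 and 4), reprogrammed mammary (replicates 1, 2 and 3), adult lung (replicates 1, 2 and 3) and adult mammary (replicates 1, 2 and 4), all labelled as epithelial cells. The adult organs came from 10-week-old female mice that were perfused, and were digested with trypsin and collagenase, with the epithelium enriched by repeated centrifugation and no cell sort stated. The strain was not given, and the labels do not say how the reprogrammed groups were treated, which of donor cells and formed tissue their organ name refers to, or whether arrays of a group came from separate animals. The p-values therefore measure the spread between arrays, which may be technical.

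Integrins are pairs of an alpha and a beta subunit that span the cell membrane and hold a cell to the matrix or to another cell. The pair sets the ligand: some alpha subunits bind laminin, others collagen, and others fibronectin and related proteins. Laminins are trimers of an alpha, a beta and a gamma chain, and they form the sheet of the basement membrane on which lung and mammary epithelium rest.

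The labelled cell type was checked first. Levels here are log2 intensity relative to the 75th percentile of the array, so a level of 0 is that percentile, and summed marker levels are linear with that percentile as 1. The sum of 5 epithelial markers was 28.6 on reprogrammed lung replicate 1, 124 and 160 on the other reprogrammed lung arrays, 173 to 195 in reprogrammed mammary, 14.8 to 20.1 in adult lung and 162 to 222 in adult mammary. The sum of 5 alveolar type II markers was 2.46 to 4.71 in reprogrammed lung, 2.83 to 3.52 in reprogrammed mammary, 65.7 to 79.3 in adult lung and 3.65 to 4.35 in adult mammary. Markers of endothelial cells were present in every group. The sum of 7 endothelial markers was 35.5 to 45.9 in reprogrammed lung, 25.6 to 28.0 in reprogrammed mammary, 134 to 157 in adult lung and 16.6 to 36.6 in adult mammary. All 7 were lower in reprogrammed lung than in adult lung by limma's test, beside 9.31% of all features. Their part in the results below was not tested, and in such bulk samples fewer cells of a type and less RNA per cell cannot be told apart. Reprogrammed lung replicate 1 and adult mammary replicate 4 stood apart, with 91.1% and 89.1% of probes above background against 71.8% to 77.5% on the other arrays. Their log2 range of intensity, with the extreme probes left out, was 6.10 and 7.11 units, against 8.46 to 9.13 on the other arrays. Levels were shifted to the 75th percentile only, so this range was not scaled. Where leaving out either array moved a member across the threshold, the value without it is given.

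Adult lung differed from each of the other groups in a set of integrin genes, and the reprogrammed groups differed from adult mammary in none that passed the test. In reprogrammed lung against adult lung, 8 of 31 genes passed the threshold of adjusted p under 0.05 in limma, 3 higher and 5 lower. That is 25.8%, near the 23.4% of all features that passed (14.1% higher and 9.31% lower). In reprogrammed mammary against adult lung, 11 passed, 6 higher and 5 lower, which is 35.5% beside a background of 26.1% (14.9% higher and 11.2% lower). In adult lung against adult mammary, 10 passed, 5 higher and 5 lower, which is 32.3% beside 28.5% (12.5% higher and 15.9% lower). These 3 comparisons share the adult lung arrays, so a gene that stands apart in adult lung passes in several of them at once. The shares are close to the background, so the results concern single genes and not the group of 31 as a whole. Of all features that passed in reprogrammed lung against adult lung, 60.2% were higher, against 47.1% after normexp correction with quantile normalization and 47.5% with the authors' log2 values. The members then stood at 2 higher and 6 lower under both. The median log2 difference of reprogrammed lung minus adult lung was -0.02 over the 31 genes and 0.10 over all features.

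No member passed in the comparisons that leave adult lung out. In reprogrammed lung against adult mammary, 0 of 31 passed in limma, 2 had an unadjusted p under 0.05, and the background was 0.0286% of features, all of them higher. In reprogrammed mammary against adult mammary, 0 of 31 passed, 4 had an unadjusted p under 0.05, and the background was 0.00408%. In reprogrammed lung against reprogrammed mammary, 0 of 31 passed, 1 had an unadjusted p under 0.05, and the background was 0.00816%. The differences from adult mammary ran from -1.45 (Lama1) to 1.03 (Itgb2) log2 units for reprogrammed lung and from -0.49 (Itgb1bp1) to 1.36 (Lama5) for reprogrammed mammary. Their 95% intervals lay within 1 log2 unit of 0 for 10 and 11 of the 31 genes. For each of the other genes the interval did not exclude a 2-fold difference in at least 1 direction.

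**Figure D1:**
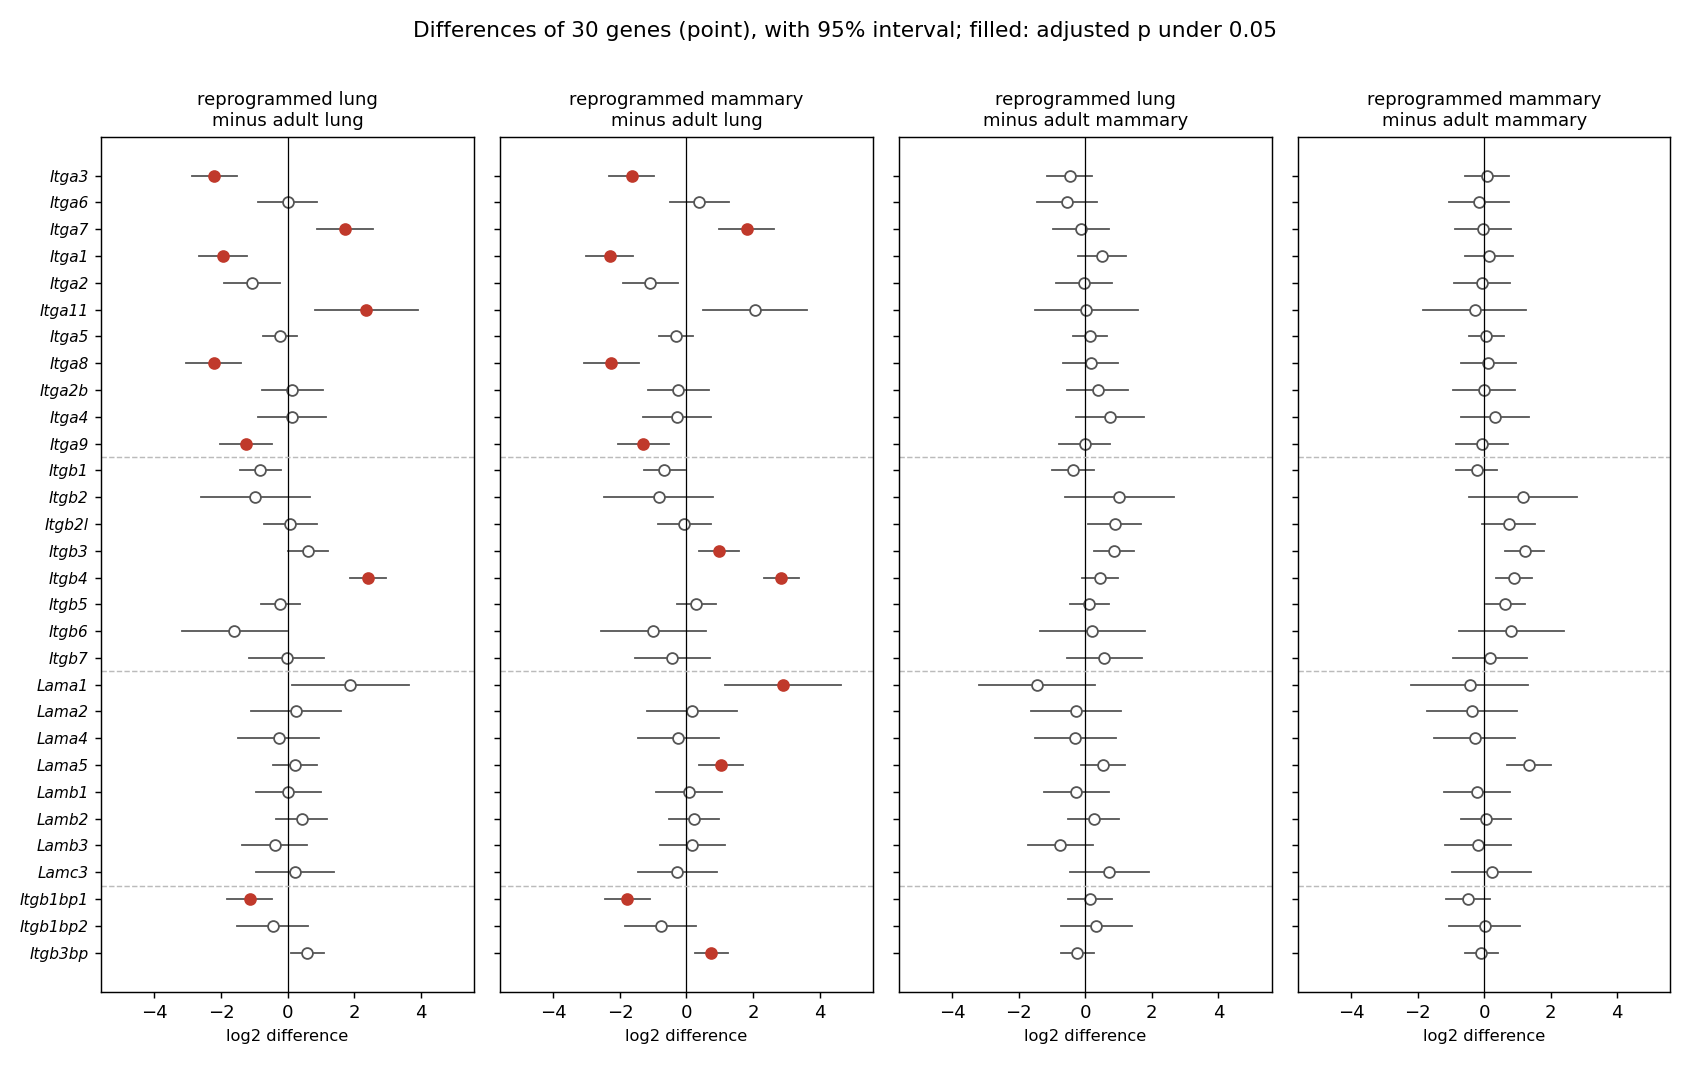
Log2 differences of 30 genes (point) with 95% intervals from limma, in 4 panels that set each reprogrammed group against adult lung and against adult mammary; filled points passed adjusted p under 0.05, and dashed lines part alpha subunits, beta subunits, laminin chains and binding proteins. The filled points, 8 and 11 genes, all lie in the panels against adult lung.

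Itga1, Itga3 and Itga8, an alpha subunit each for collagen, laminin and nephronectin, had the same pattern, with every adult lung array above all other arrays. Their promoters are shown here. Itga9 and Itgb1bp1 also passed in every comparison with adult lung, and their promoters are not shown. The sequences are RefSeq's for GRCm38.p6, read on each gene's strand from 250 bases before to 50 bases after the annotated start. They lie at chr13:115101915-115102214 (minus strand, Itga1), chr11:95076665-95076964 (minus strand, Itga3, the first of 2 entries) and chr2:12301895-12302194 (minus strand, Itga8). Capitals mark GC boxes, the letters GGGCGG on either strand.
Itga1: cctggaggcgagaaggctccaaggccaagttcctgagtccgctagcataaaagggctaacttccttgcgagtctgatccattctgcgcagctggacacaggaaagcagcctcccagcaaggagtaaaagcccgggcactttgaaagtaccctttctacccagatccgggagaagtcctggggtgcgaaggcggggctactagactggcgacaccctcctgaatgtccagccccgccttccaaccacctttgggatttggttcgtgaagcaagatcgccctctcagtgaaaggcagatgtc
Itga3: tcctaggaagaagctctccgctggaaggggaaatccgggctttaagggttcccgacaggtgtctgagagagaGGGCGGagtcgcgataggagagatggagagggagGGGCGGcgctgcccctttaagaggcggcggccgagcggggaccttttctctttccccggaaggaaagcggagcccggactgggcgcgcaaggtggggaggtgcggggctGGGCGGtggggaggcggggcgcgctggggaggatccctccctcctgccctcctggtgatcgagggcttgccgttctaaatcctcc
Itga8: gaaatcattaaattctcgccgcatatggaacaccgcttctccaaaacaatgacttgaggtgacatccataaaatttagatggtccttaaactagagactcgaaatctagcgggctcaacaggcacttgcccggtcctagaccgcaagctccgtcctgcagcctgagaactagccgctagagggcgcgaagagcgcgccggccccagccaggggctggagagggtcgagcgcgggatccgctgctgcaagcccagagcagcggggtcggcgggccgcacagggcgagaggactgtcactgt
The Itga3 promoter held 3 GC boxes, 178, 144 and 35 bases before the start, and 35.7% of all 32851 promoters of this length held at least 1. None of these 3 promoters held the AP-1 letters TGANTCA, found in 7.81% of promoters, or the TATA box letters TATAAA, found in 13.6%. Of the promoters not shown, that of Itga9 held 1 AP-1 match (TGACTCA, 38 bases after the start). That of Itgb1bp1 held no match to any of these letters. Their GC content was 56.7% for Itga1, 66.7% for Itga3 and 59.0% for Itga8, against a median of 52.7% over all promoters. A match is a description of letters only, and 21 of the 31 genes had a promoter entry.

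Among the laminin receptors, Itga3, which pairs with Itgb1 in epithelial cells, was lower in both reprogrammed groups than in adult lung. Its level was 0.90, 2.26 and 1.92 in reprogrammed lung, 2.27, 2.01 and 2.46 in reprogrammed mammary, 3.86, 4.02 and 3.80 in adult lung and 2.37, 2.06 and 2.07 in adult mammary. Every adult lung array lay above the other 9, and reprogrammed lung replicate 1 was the lowest. The difference in reprogrammed lung minus adult lung was -2.20 ± 0.30 log2 units (SE; adjusted p = 0.000641), which is 4.60-fold lower. It was -1.65 in reprogrammed mammary minus adult lung (adjusted p = 0.00277) and 1.73 in adult lung minus adult mammary (adjusted p = 0.0021). Array slides held several groups, and within slides 1, 3 and 5 the difference of reprogrammed lung minus adult lung was -1.60, -2.90 and -2.10, while the fit with slide as a block gave -2.20 (adjusted p = 0.00527). The other probes of Itga3 went the same way and passed the threshold.

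Itga7, a laminin receptor best known from muscle, had the opposite pattern. It stood at -0.93, 0.26 and 0.09 in reprogrammed lung, -0.52 to 0.18 in reprogrammed mammary, -2.19, -1.66 and -1.91 in adult lung and 0.54, -0.08 and -0.65 in adult mammary. Every adult lung array lay below the rest, with reprogrammed lung replicate 1 nearest to it. Itga7 was 1.72 ± 0.38 log2 units higher in reprogrammed lung than in adult lung (adjusted p = 0.00775), 1.81 higher in reprogrammed mammary than in adult lung (adjusted p = 0.00519) and 1.86 lower in adult lung than in adult mammary (difference -1.86, adjusted p = 0.00457). Within slides 1, 3 and 5 the difference of reprogrammed lung minus adult lung was 2.45, 0.97 and 1.75. With slide as a block it remained past the threshold (1.72, adjusted p = 0.0275), whereas reprogrammed mammary minus adult lung was 1.42 (adjusted p = 0.125) and adult lung minus adult mammary -1.45 (adjusted p = 0.111). The sum of 5 smooth muscle and pericyte markers, which carry Itga7 in many tissues, was 32.4 to 50.7 in reprogrammed lung, 36.6 to 50.6 in reprogrammed mammary, 22.0 to 30.3 in adult lung and 28.8 to 57.1 in adult mammary. Of the 6 such markers tested, 2 were higher and 2 lower in reprogrammed lung than in adult lung, beside 14.1% and 9.31% of all features. The part of these markers in the Itga7 result was not tested.

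Itga6, the laminin receptor of hemidesmosomes and of many stem cells, did not pass in any comparison. It stood at -0.09, 1.52 and 1.47 in reprogrammed lung, 1.58, 1.24 and 1.23 in reprogrammed mammary, 1.15, 0.86 and 0.88 in adult lung and 1.47, 2.03 and 1.03 in adult mammary. The groups overlapped apart from adult lung against reprogrammed mammary, and the difference of reprogrammed lung minus adult lung was 0.00143 (95% interval -0.90 to 0.90).

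Itga1, the alpha subunit of a collagen receptor, was 3.85-fold lower in reprogrammed lung than in adult lung. It stood at 0.64, 1.62 and 1.44 in reprogrammed lung, 1.02, 0.73 and 0.85 in reprogrammed mammary, 3.14, 3.24 and 3.15 in adult lung and 1.19, 0.98 and 0.00125 in adult mammary. Adult lung was again above every other array, and the other groups overlapped. The log2 difference was -1.94 ± 0.32 in reprogrammed lung minus adult lung (adjusted p = 0.00189), -2.31 in reprogrammed mammary minus adult lung (adjusted p = 0.000591) and 2.45 ± 0.32 in adult lung minus adult mammary (adjusted p = 0.000431). Within slides 1, 3 and 5 it was -1.52, -2.51 and -1.80 for reprogrammed lung minus adult lung, and -1.94 with slide as a block (adjusted p = 0.00917). All 3 Itga1 probes gave this direction and passed, though they differed in sign for the small difference of reprogrammed lung minus reprogrammed mammary, at -0.01 to 0.37.

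Itga2, a second collagen-binding subunit, did not pass. Its levels were 0.10, 1.64 and 0.82 in reprogrammed lung, 0.68, 0.82 and 1.01 in reprogrammed mammary, 2.02, 1.91 and 1.83 in adult lung and 0.61, 1.59 and 0.49 in adult mammary. Adult lung was the highest group on every array, but the differences of reprogrammed lung minus adult lung (-1.06, adjusted p = 0.0679) and reprogrammed mammary minus adult lung (-1.08, adjusted p = 0.0589) missed the threshold. Adult lung minus adult mammary was 1.02 (adjusted p = 0.0687, or 0.0252 without reprogrammed lung replicate 1). Without reprogrammed lung replicate 3 the first 2 were -1.46 (adjusted p = 0.0155) and -1.08 (adjusted p = 0.0269), and without reprogrammed lung replicate 1 reprogrammed mammary minus adult lung had an adjusted p of 0.0208.

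Itga11, the collagen-binding subunit of fibroblasts, was low in adult lung. It stood at -2.34, -1.80 and 0.84 in reprogrammed lung, -1.79, -1.13 and -1.31 in reprogrammed mammary, -3.31, -3.96 and -3.15 in adult lung and -0.58, -0.89 and -1.90 in adult mammary. Adult lung lay below all other arrays, and reprogrammed lung replicate 4 was the highest of all. The differences were 2.37 ± 0.70 in reprogrammed lung minus adult lung (adjusted p = 0.0326), 2.06 in reprogrammed mammary minus adult lung (adjusted p = 0.0529, not past the threshold) and -2.35 ± 0.70 in adult lung minus adult mammary (adjusted p = 0.0293). Reprogrammed mammary minus adult lung kept its value of 2.06 and passed without reprogrammed lung replicate 1 (adjusted p = 0.0264), without replicate 4 (adjusted p = 0.00294) and with only the groups compared (adjusted p = 0.00153). The call in reprogrammed lung minus adult lung was lost on leaving out any 1 adult lung array (2.13 to 2.53, adjusted p = 0.0624 to 0.11) and with only the groups compared (adjusted p = 0.121), and without reprogrammed lung replicate 4 the difference was 1.40 (adjusted p = 0.0342). With normexp both calls were lost, at 1.19 (adjusted p = 0.131) and -1.16 (adjusted p = 0.123), and with the authors' values at 1.53 (adjusted p = 0.104) and -1.60 (adjusted p = 0.0802). The call in adult lung minus adult mammary was lost on leaving out any 1 adult lung array, adult mammary replicate 1 or adult mammary replicate 2 (-2.08 to -2.51, adjusted p = 0.0555 to 0.1). With slide as a block both were lost, at 2.37 (adjusted p = 0.0886) and -2.51 (adjusted p = 0.163), and within slides 1, 3 and 5 reprogrammed lung minus adult lung was 1.50, 0.81 and 4.80. The sum of 6 fibroblast markers was 97.0, 92.7 and 315 in reprogrammed lung, with replicate 4 the highest as for Itga11, 197 to 241 in reprogrammed mammary, 84.3 to 104 in adult lung and 129 to 197 in adult mammary. Of 7 fibroblast markers tested, 2 were higher and 2 lower in reprogrammed lung than in adult lung, beside 14.1% and 9.31% of all features. The part of these markers in the Itga11 result was not tested.

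**Figure D2:**
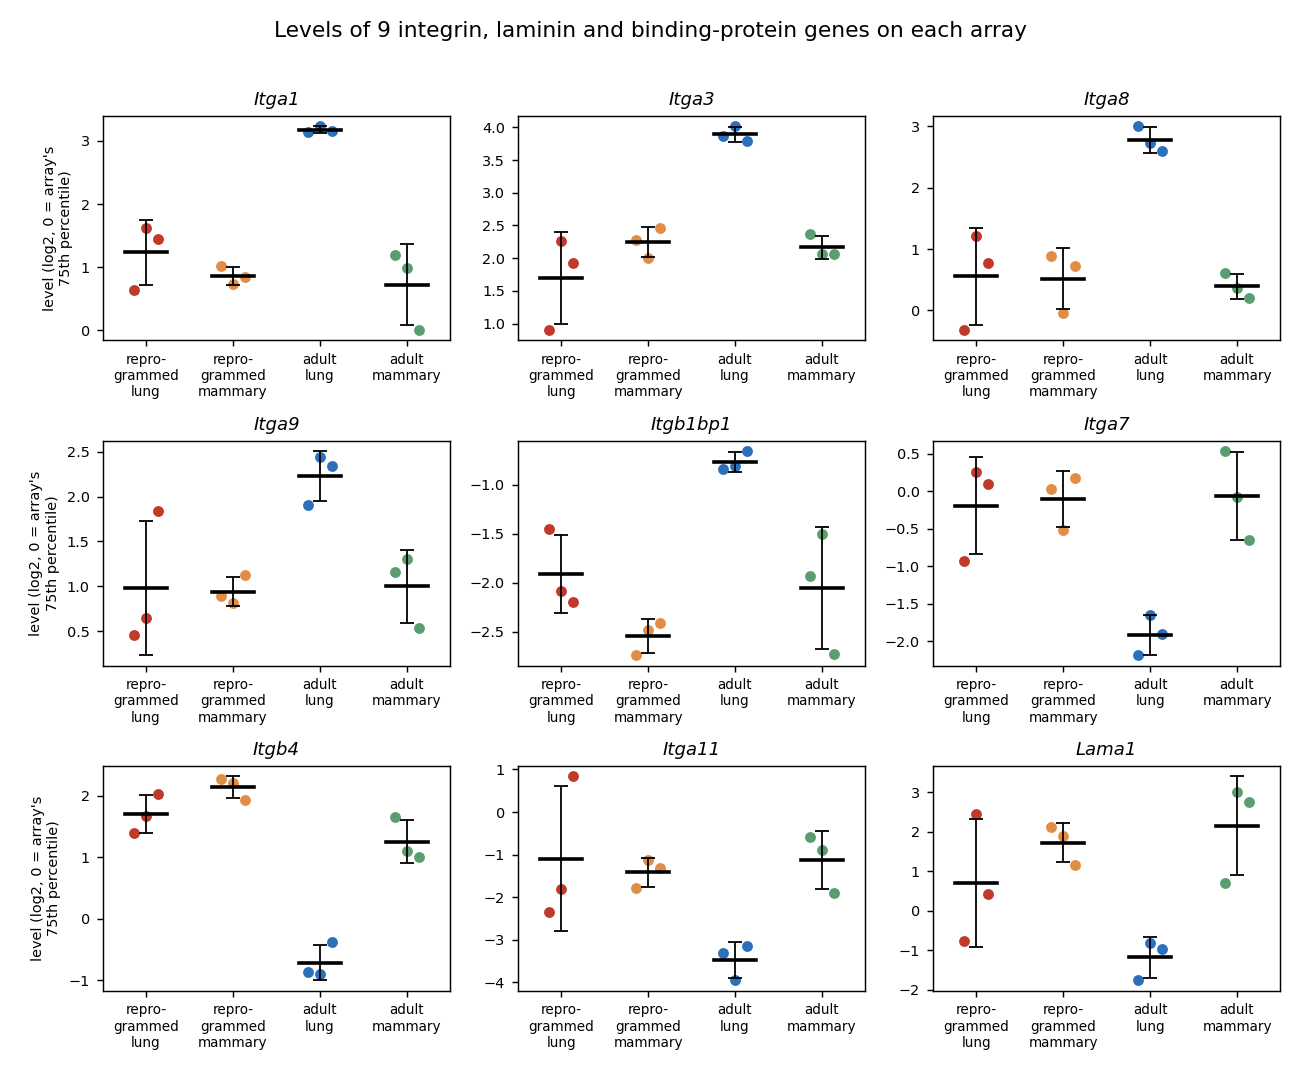
Levels of 9 genes on each array (dots; log2, 0 is the array's 75th percentile), with the mean and SD of 3 arrays per group. Itga1, Itga3, Itga8, Itga9 and Itgb1bp1 are highest, and Itga7, Itgb4, Itga11 and Lama1 lowest, on the adult lung arrays; for Lama1, reprogrammed lung replicate 1 (-0.77) comes next to adult lung replicate 2 (-0.81).

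Itga8, whose integrin with Itgb1 binds nephronectin and is found on lung mesenchymal and contractile cells, was 4.66-fold lower in reprogrammed lung than in adult lung. Its levels were -0.32, 1.21 and 0.78 in reprogrammed lung, 0.89, -0.05 and 0.72 in reprogrammed mammary, 3.01, 2.73 and 2.60 in adult lung and 0.61, 0.36 and 0.21 in adult mammary. Adult lung was above the other arrays by more than 1 log2 unit, and the other 3 groups overlapped. The difference was -2.22 ± 0.37 in reprogrammed lung minus adult lung (adjusted p = 0.00192), -2.26 in reprogrammed mammary minus adult lung (adjusted p = 0.00147) and 2.38 ± 0.37 in adult lung minus adult mammary (adjusted p = 0.00109). Within slides 1, 3 and 5 the first of these was -1.80, -2.92 and -1.95, and with slide as a block -2.22 (adjusted p = 0.00456). The gene of its ligand, Npnt (nephronectin), stood at -0.04, 0.98 and 1.26 in reprogrammed lung, 1.41, 1.20 and 1.37 in reprogrammed mammary, 5.18, 5.44 and 5.31 in adult lung and 1.03, 1.22 and 1.44 in adult mammary. Npnt was likewise highest on every adult lung array, at -4.58 ± 0.29 log2 units in reprogrammed lung minus adult lung (adjusted p = 8.32e-06) and 4.08 ± 0.29 in adult lung minus adult mammary (adjusted p = 1.39e-05). The smooth muscle and pericyte marker sum was 22.0 to 30.3 in adult lung and 28.8 to 57.1 over the other groups. The fibroblast marker sum was 84.3 to 104 in adult lung and 92.7 to 315 over the other groups. The part of these markers in the Itga8 result was not tested.

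Itga9, which pairs with Itgb1 and binds tenascin and other ligands, showed a smaller difference of the same kind. It stood at 0.45, 0.64 and 1.84 in reprogrammed lung, 0.89, 0.81 and 1.12 in reprogrammed mammary, 1.91, 2.44 and 2.34 in adult lung and 1.15, 1.30 and 0.53 in adult mammary. Adult lung was the highest group without overlap, and reprogrammed lung replicate 4 came nearest to it. The difference was -1.25 ± 0.35 in reprogrammed lung minus adult lung (adjusted p = 0.0257), -1.29 in reprogrammed mammary minus adult lung (adjusted p = 0.0204) and 1.23 ± 0.35 in adult lung minus adult mammary (adjusted p = 0.0238). Each call was lost without adult lung replicate 2 or 3 (adjusted p = 0.0643 to 0.0906). The call in reprogrammed lung minus adult lung was also lost without reprogrammed lung replicate 1 (-0.99, adjusted p = 0.0626) or 3 (-1.08, adjusted p = 0.0834), that in reprogrammed mammary minus adult lung without reprogrammed mammary replicate 1 or 2 (adjusted p = 0.0648 and 0.0665), and that in adult lung minus adult mammary without adult mammary replicate 4 (1.00, adjusted p = 0.084). With slide as a block the 3 values were -1.25, -1.38 and 1.17 with adjusted p = 0.0739, 0.133 and 0.183, and within slides 1, 3 and 5 reprogrammed lung minus adult lung was -1.27, -1.88 and -0.60. With only the groups compared, that call was lost (adjusted p = 0.104).

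The remaining alpha subunits did not pass. Itga5, of the fibronectin receptor, differed by -0.23 in reprogrammed lung minus adult lung (95% interval -0.75 to 0.29), the narrowest of these intervals. Itga2b, the platelet subunit, ran from -2.39 to -0.68 in reprogrammed lung and from -2.02 to -1.54 in adult lung. Itga4, a leukocyte subunit that binds VCAM, stood at 0.83, -0.80 and -1.36 in reprogrammed lung, -0.99, -0.38 and -1.22 in reprogrammed mammary, -0.64, -0.57 and -0.50 in adult lung and -1.29, -1.32 and -0.98 in adult mammary. Reprogrammed lung replicate 1 was the highest array, and reprogrammed mammary replicate 2 the highest of its group. The Itga4 probes disagreed in sign for reprogrammed lung minus adult lung, at -1.06 to 0.13, with no probe past the threshold.

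Of the beta subunits, Itgb4 had the largest difference. It pairs with Itga6 alone, in the hemidesmosomes that fix basal epithelial cells to laminin. Itgb4 stood at 1.40, 1.68 and 2.02 in reprogrammed lung, 2.27, 2.20 and 1.93 in reprogrammed mammary, -0.87, -0.90 and -0.39 in adult lung and 1.65, 1.102 and 0.99 in adult mammary. Adult lung lay below every other array, reprogrammed mammary lay above adult mammary without overlap, and reprogrammed lung overlapped both. The difference was 2.42 ± 0.24 in reprogrammed lung minus adult lung (adjusted p = 0.000113), which is 5.34-fold higher, 2.86 ± 0.24 in reprogrammed mammary minus adult lung (adjusted p = 3.11e-05) and -1.97 ± 0.24 in adult lung minus adult mammary (adjusted p = 0.000295). Within slides 1, 3 and 5 the first of these was 2.55, 1.78 and 2.92, and with slide as a block 2.42 (adjusted p = 0.0033). Reprogrammed mammary minus adult mammary was 0.89 (95% interval 0.35 to 1.43, adjusted p = 0.273) and did not pass. Of 5 epithelial markers, 4 were higher in each reprogrammed group than in adult lung, beside 14.1% and 14.9% of all features. All 5 were lower in adult lung than in adult mammary, beside 15.9% of all features. Of 5 mammary basal markers, 3 were higher in reprogrammed lung and 4 in reprogrammed mammary than in adult lung. In adult lung against adult mammary, 4 of the basal markers were lower. The sum of 5 mammary basal markers was 5.33 to 21.4 in reprogrammed lung, 11.0 to 27.4 in reprogrammed mammary, 1.94 to 14.8 in adult lung and 34.3 to 45.1 in adult mammary. Of 5 mammary luminal markers, 4 were higher in reprogrammed lung and 5 in reprogrammed mammary than in adult lung. All 5 were lower in adult lung than in adult mammary. The luminal sum was 8.72 to 54.8 in reprogrammed lung, 71.1 to 97.2 in reprogrammed mammary, 2.22 to 2.83 in adult lung and 38.9 to 72.8 in adult mammary. On reprogrammed lung replicate 1, where the epithelial sum was 28.6, Itgb4 was at 1.40. The part of any of these marker lists in the Itgb4 result was not tested.

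Itgb1, the partner of most alpha subunits named above, stood at 0.89, 1.76 and 2.08 in reprogrammed lung, 1.81, 1.58 and 1.79 in reprogrammed mammary, 2.65, 2.32 and 2.20 in adult lung and 2.07, 2.07 and 1.70 in adult mammary. Adult lung was the highest group on every array, by a small margin. The difference was -0.81 in reprogrammed lung minus adult lung (adjusted p = 0.0607) and -0.66 in reprogrammed mammary minus adult lung (adjusted p = 0.111), and neither passed for the probe that stood for the gene. Without reprogrammed lung replicate 1 the adjusted p of the second was 0.0159. With the authors' values both passed, at -0.78 (adjusted p = 0.0279) and -0.72 (adjusted p = 0.0347). The other Itgb1 probe, tested with every probe as a feature, gave -1.13 (adjusted p = 0.00576) and 0.95 in adult lung minus adult mammary (adjusted p = 0.0121).

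Itgb3, the partner of Itgav and Itga2b, was higher in reprogrammed mammary than in adult lung. It stood at 2.62, 1.48 and 2.38 in reprogrammed lung, 2.63, 2.48 and 2.40 in reprogrammed mammary, 1.25, 1.60 and 1.77 in adult lung and 1.32, 1.32 and 1.24 in adult mammary. The reprogrammed mammary arrays lay above both adult groups, and reprogrammed lung replicate 3 lay among the adult lung arrays. The difference in reprogrammed mammary minus adult lung was 0.97 ± 0.27 (adjusted p = 0.0234). It was lost without adult lung replicate 1 or 2 or any 1 reprogrammed mammary array (0.82 to 1.02, adjusted p = 0.0527 to 0.0957), with slide as a block it was 1.07 (adjusted p = 0.0709), and with normexp and the authors' values it was 0.76 under both (adjusted p = 0.0565 and 0.0692). Reprogrammed mammary minus adult mammary was 1.21 (95% interval 0.61 to 1.81, adjusted p = 0.194), and reprogrammed lung minus adult lung was 0.62 (adjusted p = 0.13), or 0.96 (adjusted p = 0.00787) without reprogrammed lung replicate 3.

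Itgb6, the epithelial partner of Itgav that activates TGF-beta, varied widely among the reprogrammed lung arrays. It stood at -1.29, 2.47 and 0.40 in reprogrammed lung, 1.13, 0.75 and 1.50 in reprogrammed mammary, 1.94, 2.19 and 2.26 in adult lung and -0.01, 0.61 and 0.36 in adult mammary. Reprogrammed lung replicate 3 was above adult lung and replicate 1 below every other array. The difference in reprogrammed lung minus adult lung was -1.61 (adjusted p = 0.136), and -2.58 (adjusted p = 0.0038) without reprogrammed lung replicate 3. Adult lung minus adult mammary was 1.81 (adjusted p = 0.0824), and passed without reprogrammed lung replicate 1 (adjusted p = 0.0111) or 3 (adjusted p = 0.00824), whose spread enters the shared error. The 3 Itgb6 probes disagreed in sign for reprogrammed mammary minus adult lung, at -1.001 to 0.23.

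Itgb2, the beta subunit shared by leukocyte integrins, was highest on the arrays where the leukocyte markers were highest, in each group other than adult lung. It stood at 4.25, 2.02 and 2.28 in reprogrammed lung, 2.11, 4.00 and 2.85 in reprogrammed mammary, 3.50, 3.96 and 4.00 in adult lung and 1.04, 1.14 and 3.30 in adult mammary. One array in each group other than adult lung stood well above its fellows, and these were reprogrammed lung replicate 1, reprogrammed mammary replicate 2 and adult mammary replicate 4. The summed level of 4 leukocyte markers was 71.4, 2.24 and 1.95 in reprogrammed lung, 5.16, 23.4 and 5.65 in reprogrammed mammary, 7.75 to 12.5 in adult lung and 1.70, 2.10 and 16.9 in adult mammary, and was highest on those same arrays. Itgb2 did not pass in any comparison, with 2.00 in adult lung minus adult mammary (adjusted p = 0.0673), and 2.73 (adjusted p = 0.0183) without adult mammary replicate 4 or 2.00 (adjusted p = 0.0304) without reprogrammed lung replicate 1. The part of the leukocyte markers in the Itgb2 values was not tested. Itgb7, the lymphocyte subunit that homes cells to the gut, stood at 1.43, -0.93 and 0.08 in reprogrammed lung, -0.38, 0.14 and -0.36 in reprogrammed mammary, 0.08, 0.28 and 0.30 in adult lung and -0.53, -0.89 and 0.30 in adult mammary, and the same arrays were the highest of their groups. Itgb5, which binds vitronectin with Itgav, and Itgb2l, a relative of Itgb2, did not pass in any comparison.

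**Figure D3:**
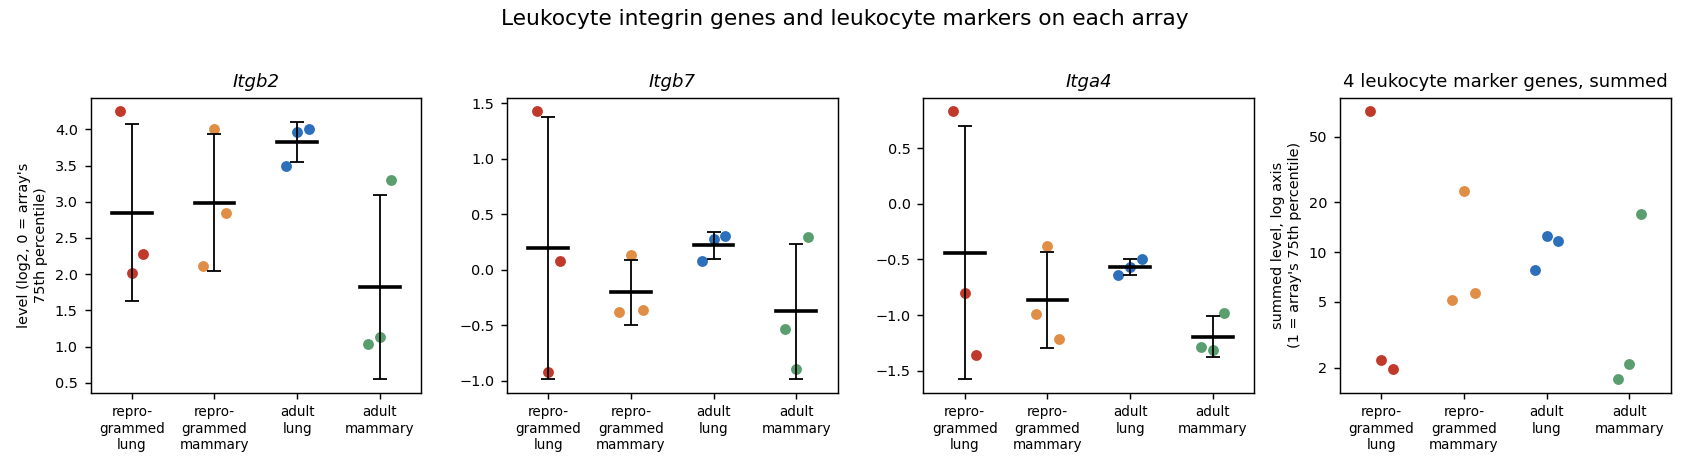
Levels of Itgb2, Itgb7 and Itga4 on each array (dots; log2, with mean and SD of 3 arrays) and the summed linear level of 4 leukocyte markers (log axis). Reprogrammed lung replicate 1, reprogrammed mammary replicate 2 and adult mammary replicate 4 are the highest of their groups in all 4 panels, with 71.4, 23.4 and 16.9 for the marker sum.

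Of the 9 laminin chains, 0 passed in reprogrammed lung minus adult lung (1 at an unadjusted p under 0.05 in limma), 2 passed in reprogrammed mammary minus adult lung and 1 in adult lung minus adult mammary, where 23.4%, 26.1% and 28.5% of all features passed. Lama1, the alpha chain of the laminin of early embryos and of some adult epithelia, had the largest differences. It stood at -0.77, 2.46 and 0.43 in reprogrammed lung, 2.11, 1.90 and 1.16 in reprogrammed mammary, -1.76, -0.81 and -0.95 in adult lung and 0.72, 3.00 and 2.75 in adult mammary. The reprogrammed mammary and adult mammary arrays were all above adult lung, and reprogrammed lung ran from just above adult lung to near the highest adult mammary arrays. Lama1 was 2.90 ± 0.79 log2 units higher in reprogrammed mammary than in adult lung (adjusted p = 0.021) and -3.33 ± 0.79 in adult lung minus adult mammary (adjusted p = 0.0104). In reprogrammed lung minus adult lung it was 1.88 ± 0.79 (adjusted p = 0.116), and 2.62 (adjusted p = 0.0276) without reprogrammed lung replicate 1. The call in reprogrammed mammary minus adult lung was lost without adult lung replicate 1 (2.61, adjusted p = 0.0805) or reprogrammed mammary replicate 1 or 2 (2.71 and 2.81, adjusted p = 0.0741 and 0.0634). With slide as a block both calls were lost, at 3.21 (adjusted p = 0.12) and -3.42 (adjusted p = 0.0974), and on the 1 slide that held adult lung and adult mammary the difference was -4.77.

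Lama5, the alpha chain of most adult basement membranes, stood at -0.03, -0.02 and 0.86 in reprogrammed lung, 1.32, 0.61 and 1.34 in reprogrammed mammary, 0.00, 0.15 and -0.02 in adult lung and -0.67, 0.06 and -0.20 in adult mammary. Reprogrammed mammary lay above both adult groups without overlap. Lama5 was 1.04 ± 0.30 higher in reprogrammed mammary than in adult lung (adjusted p = 0.0256), a call lost without any 1 adult lung array or reprogrammed mammary replicate 1 or 3 (0.92 to 1.097, adjusted p = 0.0587 to 0.0963) and with slide as a block (0.86, adjusted p = 0.288). Reprogrammed mammary minus adult mammary was 1.36 (95% interval 0.70 to 2.02, adjusted p = 0.19).

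The other chains did not pass. Lama4, of vessel walls, stood at 0.69, 2.29 and 3.47 in reprogrammed lung, 2.07, 2.04 and 2.40 in reprogrammed mammary, 2.46, 2.48 and 2.31 in adult lung and 2.62, 2.83 and 1.93 in adult mammary, so the reprogrammed lung arrays spanned all the others, and its 3 probes disagreed in sign for adult lung minus adult mammary (-0.08 to 0.09). Lama2, of muscle and nerve, and Lamb1, a chain of many laminins, were also highest on reprogrammed lung replicate 4, at 1.88 and 0.66. Lamb2 stood at 1.84, 3.19 and 3.29 in reprogrammed lung and 2.36, 2.39 and 2.29 in adult lung, and its difference of 0.43 (adjusted p = 0.427) became 0.90 (adjusted p = 0.00814) without reprogrammed lung replicate 1. Lamb3, which joins Lama3 in the laminin bound by Itgb4, was lowest of all arrays on reprogrammed lung replicate 1, at -0.15, and otherwise lay between 0.93 and 2.16. Lamc3, a minor gamma chain, ran from -2.75 to -1.25 in reprogrammed lung and from -3.04 to -1.18 in adult lung, and its 4 groups overlapped.

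**Figure D4:**
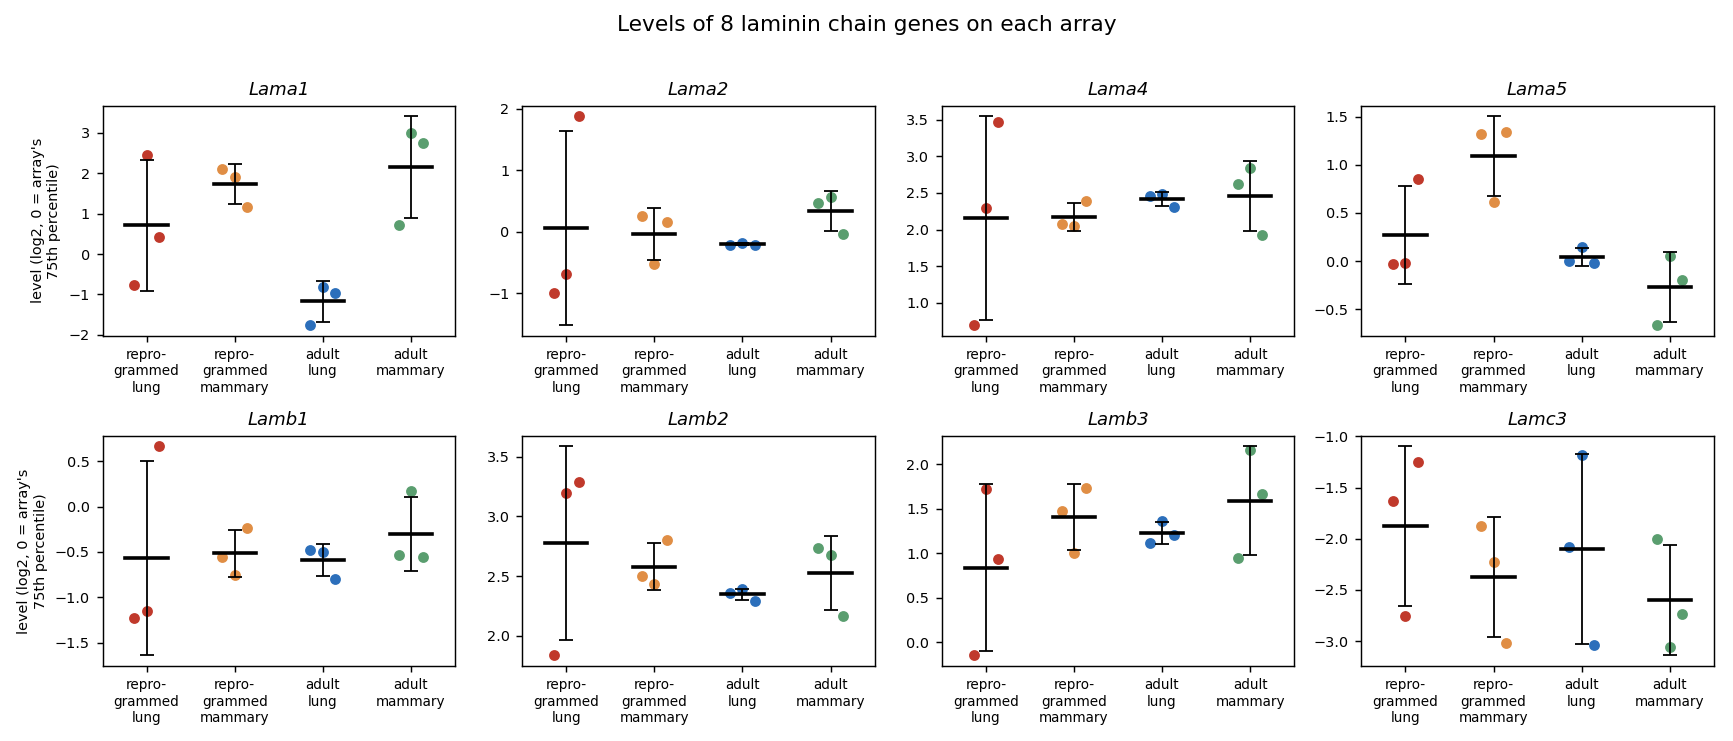
Levels of 8 laminin chain genes on each array (dots; log2, 0 is the array's 75th percentile), with mean and SD of 3 arrays per group. Reprogrammed lung has the widest spread for most chains, with replicate 4 highest for Lama2 (1.88) and Lama4 (3.47) and replicate 1 lowest for Lamb3 (-0.15).

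Among the proteins named for a beta subunit, Itgb1bp1, which binds the cytoplasmic tail of the subunit made by Itgb1, was lower in both reprogrammed groups. It stood at -1.45, -2.08 and -2.19 in reprogrammed lung, -2.74, -2.48 and -2.41 in reprogrammed mammary, -0.84, -0.81 and -0.66 in adult lung and -1.93, -1.50 and -2.72 in adult mammary. Adult lung was above all other arrays. The difference was -1.14 ± 0.30 in reprogrammed lung minus adult lung (adjusted p = 0.0196), -1.77 in reprogrammed mammary minus adult lung (adjusted p = 0.0017) and 1.28 ± 0.30 in adult lung minus adult mammary (adjusted p = 0.00966). The first was lost without any 1 adult lung array or reprogrammed lung replicate 3 or 4 (-0.999 to -1.17, adjusted p = 0.0536 to 0.0656), and the other values were -1.29 (adjusted p = 0.0775) and 0.87 (adjusted p = 0.181) with slide as a block. Within slides 1, 3 and 5 reprogrammed lung minus adult lung was -1.25, -0.80 and -1.38.

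Itgb3bp, a nuclear protein that also binds the subunit made by Itgb3, stood at -2.82, -3.03 and -3.17 in reprogrammed lung, -2.79, -2.76 and -3.00 in reprogrammed mammary, -3.19, -4.03 and -3.58 in adult lung and -2.92, -2.86 and -2.54 in adult mammary. Adult lung was the lowest group, with its replicate 1 next to reprogrammed lung replicate 4. The differences were 0.75 ± 0.22 in reprogrammed mammary minus adult lung (adjusted p = 0.0307) and -0.83 ± 0.22 in adult lung minus adult mammary (adjusted p = 0.0184). Both were lost with the mean of its 2 probes, at 0.63 (adjusted p = 0.434) and -0.44 (adjusted p = 0.572), and with slide as a block (adjusted p = 0.158 for both). With normexp the values were 0.27 (adjusted p = 0.131) and -0.29 (adjusted p = 0.0931), and with the authors' values 0.43 (adjusted p = 0.0941) and -0.48 (adjusted p = 0.0566). The first was lost without adult lung replicate 2 or 3 or any 1 reprogrammed mammary array (0.53 to 0.83, adjusted p = 0.0547 to 0.122), and the second on leaving out adult lung replicate 2, adult lung replicate 3 or adult mammary replicate 4 (-0.62 to -0.84, adjusted p = 0.0501 to 0.0754). Itgb1bp2, melusin of striated muscle, did not pass. Over the 31 genes, 8 had probes that disagreed in sign, in 16 differences in all, and in 0 of these did a probe pass the threshold.

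The lung and mammary names were set against each other by testing whether the change of reprogrammed minus adult differed between them. For 4 of 31 genes it did in limma, 1 in the higher and 3 in the lower direction, which is 12.9% beside a background of 12.8% (7.41% higher and 5.39% lower). The change was lower in lung than in mammary by 2.09 ± 0.46 log2 units for Itga1 (difference -2.09, adjusted p = 0.0159), with -2.28 ± 0.43 for Itga3 (adjusted p = 0.00806) and -2.35 ± 0.53 for Itga8 (adjusted p = 0.0171), and it was higher by 1.53 ± 0.34 for Itgb4 (adjusted p = 0.017). The Itgb4 call was lost without adult lung replicate 2 (1.44, adjusted p = 0.0512) and with slide as a block (1.59, adjusted p = 0.0653). With replicate number as a block all 4 calls were lost (adjusted p = 0.127, 0.0559, 0.089 and 0.115 for Itga1, Itga3, Itga8 and Itgb4). For these 4 genes every adult lung array lay outside the range of all other arrays. The test uses those arrays too, so its calls are not independent of the calls against adult lung above. For Itga7 the value was 1.76 (adjusted p = 0.0546), and 2.13 (adjusted p = 0.011) without reprogrammed lung replicate 1 or 2.06 (adjusted p = 0.0372) without adult mammary replicate 4. Without reprogrammed lung replicate 1, Itga11 (3.28, adjusted p = 0.0323) and Lamb2 (0.84, adjusted p = 0.049) also passed.

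Ligands and partners outside the family were listed for comparison. Of 14 integrin ligands other than laminin, 1 was higher and 2 were lower in reprogrammed lung than in adult lung, near the 23.4% of all features that passed, with a median difference of -0.02 beside 0.10 over all features. The lower ones were Npnt, above, and Icam2, an endothelial ligand of the leukocyte integrins. Icam2 stood at 1.11, 0.38 and -0.10 in reprogrammed lung, -0.24, 0.09 and 0.02 in reprogrammed mammary, 3.43, 3.44 and 3.27 in adult lung and 0.73, 0.07 and -0.70 in adult mammary. Adult lung was above the other arrays, and the difference in reprogrammed lung minus adult lung was -2.91 ± 0.37 (adjusted p = 0.000379), alongside the lower endothelial markers given above. Spp1 (osteopontin, bound by Itga8, Itga9 and Itgb3 integrins) was higher: it stood at 0.80, 2.50 and 2.76 in reprogrammed lung, 5.10, 3.87 and 4.36 in reprogrammed mammary, -0.22, -0.40 and -0.56 in adult lung and 0.04, -0.48 and 1.30 in adult mammary. Reprogrammed mammary was above every other array. The difference was 2.41 ± 0.57 in reprogrammed lung minus adult lung (adjusted p = 0.0115) and 4.84 ± 0.57 in reprogrammed mammary minus adult lung (adjusted p = 0.000217). Spp1 did not pass in reprogrammed mammary minus adult mammary, where 0 of the 14 ligands and 0.00408% of all features passed.

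Of 14 basement membrane genes other than laminins, 2 were higher and 5 lower in reprogrammed lung than in adult lung, beside 14.1% higher and 9.31% lower of all features. Col4a3, a collagen chain of the alveolar basement membrane, stood at -2.80, -2.94 and -3.01 in reprogrammed lung, -4.54, -4.02 and -3.52 in reprogrammed mammary, 1.91, 1.92 and 1.54 in adult lung and -3.67, -3.94 and -4.33 in adult mammary. Adult lung was far above the rest, and the difference in reprogrammed lung minus adult lung was -4.71 ± 0.27 (adjusted p = 4.88e-06). Col15a1, a collagen on the outer face of basement membranes, differed by 2.74 ± 0.40 (adjusted p = 0.000908) and Ntn4, a laminin-related netrin, by -1.58 ± 0.32 (adjusted p = 0.00503). Of 6 hemidesmosome and laminin receptor genes, 1 was lower in reprogrammed lung than in adult lung, the laminin receptor Bcam (-0.98 ± 0.24, adjusted p = 0.0135, or 0.0531 without adult lung replicate 2). Col17a1, a hemidesmosome collagen, was higher in reprogrammed mammary than in adult lung (2.24 ± 0.47, adjusted p = 0.00551) and lower in adult lung than in adult mammary (-2.53 ± 0.47, adjusted p = 0.00282), with smaller values of 0.91 and -1.15 after normexp that also passed.

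**Figure D5:**
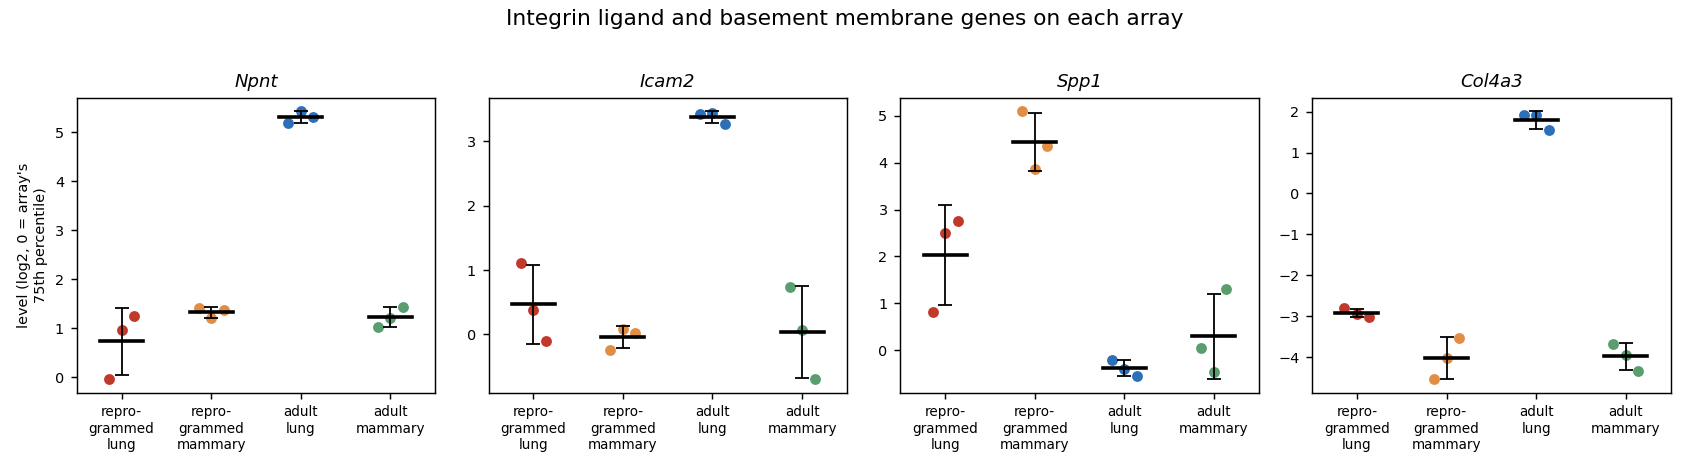
Levels of Npnt, Icam2, Spp1 and Col4a3 on each array (dots; log2, 0 is the array's 75th percentile), with mean and SD of 3 arrays per group. Npnt, Icam2 and Col4a3 are highest on the 3 adult lung arrays, and Spp1 is highest in reprogrammed mammary (3.87 to 5.10).

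Of 17 focal adhesion genes, which link integrin tails to actin, 1 was higher and 6 were lower in reprogrammed lung than in adult lung, beside 14.1% higher and 9.31% lower of all features, with a median difference of -0.63 beside 0.10. Parvb, which joins the integrin-linked kinase, stood at -0.20, -0.95 and -1.16 in reprogrammed lung, -1.37, -1.30 and -1.51 in reprogrammed mammary, 1.31, 1.32 and 1.35 in adult lung and -0.79, -1.14 and -1.67 in adult mammary. It was highest on the adult lung arrays, with a difference of -2.09 ± 0.27 in reprogrammed lung minus adult lung (adjusted p = 0.000471). Its partner Lims1, a scaffold of the same complex, differed by -1.28 ± 0.17 (adjusted p = 0.0005). Among the 6 lower calls, those of Parvb and Lims1 were kept under every alternative. The others were each lost under some, from 1 to 16 of 26. Fermt1, the epithelial kindlin that activates integrins, was the higher one, at 2.37 ± 0.75 (adjusted p = 0.0438). It stood at -2.49, 1.27 and -0.21 in reprogrammed lung, 2.02, 1.36 and 1.70 in reprogrammed mammary, -2.49, -3.57 and -2.47 in adult lung and -0.29, 0.36 and 0.51 in adult mammary, so that reprogrammed lung replicate 1 lay among the adult lung arrays. The call was lost under 18 of 26 alternatives, 11 of them leaving out a single array, with values from 1.46 (normexp, adjusted p = 0.104) and adjusted p up to 0.162. Without reprogrammed lung replicate 1 the difference was 3.38 (adjusted p = 0.000927), and without replicate 3 it was 1.50 (adjusted p = 0.121).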

How the data were processed

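Messenger RNA of 12 samples in 4 groups of 3 was read on single-colour Agilent arrays (Cy3, linear amplification, per the labels' protocols). Per the file headers, the deposited processed signal is an intensity after background subtraction and spatial detrending by Feature Extraction 10.5.1.1, with no scaling between arrays. The submitters' processing notes name version 10.1. The authors' deposited log2 values rank on each array as the raw median intensity does (Spearman correlation at least 0.999998), with medians of 6.78 to 6.79. How they were scaled between arrays is not stated.

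Spots of a probe were averaged, outlier spots left out, and probes named by accession through a RefSeq table (24844 of 41174 probes, 17178 symbols). Levels were log2 intensity minus the array's 75th percentile. The brightest probe stood for a gene, and a feature was tested if well above background on all 3 arrays of at least 1 group (24504 features, 308 of them without a value on some array). Limma 3.58.1 in R 4.3.3 fitted a mean per group over all 12 arrays (8 residual and 2.37 prior degrees of freedom). Two-sided p-values were Benjamini-Hochberg adjusted over all features of a comparison, with a threshold of 0.05. 1 of the member genes is counted but not reported here by name. The number of arrays limits the precision. No pair of arrays held identical values.

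Members that passed with at least a 2-fold change in at least 2 of the 6 comparisons of 2 groups, and those whose probes disagreed in sign, are given on all arrays. Itga6, Itgb1, Itgb2, Itgb3, Itgb7 and Lama5 were added after their values were seen. Of the genes outside the family, the 3 largest differences of a list in a comparison may be named. Members and lists were chosen with earlier results of these data known. Alternatives were the normexp correction with quantile normalization, quantile normalization alone, the authors' values, other filters, slide and replicate blocks, other probe rules, array weights, a variance trend, only the groups compared, and leaving out arrays. Normexp used the median signal because the files hold no mean signal. The fit was tested on simulated data.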

Additional observations from a re-analysis of the deposited data

Results flagged for a closer look

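The change of reprogrammed minus adult differed between the lung and mammary names for 4 genes, by limma's test of that difference over all 12 arrays. The difference of the changes was -2.09 ± 0.46 log2 units (SE) for Itga1 (adjusted p = 0.0159), -2.28 ± 0.43 for Itga3 (adjusted p = 0.00806) and -2.35 ± 0.53 for Itga8 (adjusted p = 0.0171). For Itgb4 it was 1.53 ± 0.34 (adjusted p = 0.017), a call lost with slide as a block (adjusted p = 0.0653) and without adult lung replicate 2 (adjusted p = 0.0512). All 4 calls were lost with replicate number as a block, where Itga1, Itga3, Itga8 and Itgb4 had adjusted p = 0.127, 0.0559, 0.089 and 0.115. For each of these genes every adult lung array lay outside the range of the other 9 arrays, as the values above show.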

How the results depend on the processing

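Over 26 alternatives, 33 calls of member genes were followed, of which 13 were kept under each one that applied and 20 were lost under at least 1, 12 of them on leaving out a single array. Those kept throughout were Itga1, Itga3, Itga8 and Itgb4 in the comparisons of 2 groups that involve adult lung, and Itga7 in reprogrammed lung minus adult lung. No called value reversed its sign, and 31 values that had not passed did so under some alternative. Of 31 genes, the number past the threshold with slide as a fixed block was 4 in reprogrammed mammary minus adult lung and 4 in adult lung minus adult mammary. With array weights it was 17 in reprogrammed mammary minus adult lung, 2 (Itgb3 and Lama5) in reprogrammed mammary minus adult mammary and 7 for the difference of the changes. Leaving out both arrays that stood apart gave 8 genes for the difference of the changes. The causes of these shifts were not tested. The shares of all features under these settings and those below are not given here. The counts are therefore no result about the 31 genes as a group. Leaving out 1 array at a time gave 5 to 9 genes in reprogrammed lung minus adult lung, 6 to 14 in reprogrammed mammary minus adult lung, 7 to 13 in adult lung minus adult mammary and 3 to 7 for the difference of the changes. The labels do not say what a replicate number shares. Same-numbered arrays of different groups had correlations of their deviations from group means of -0.53 to 0.33 (13 pairs, median 0.04). For arrays of other numbers these ran from -0.43 to 0.64 (41 pairs, median 0.008). With group means of 3 arrays, such correlations cannot settle whether the numbers pair the samples. With the replicate block, 5 genes passed in reprogrammed lung minus adult lung, 7 in reprogrammed mammary minus adult lung, 7 in adult lung minus adult mammary and 0 for the difference of the changes, where Itga1, Itga3, Itga8 and Itgb4 had adjusted p = 0.127, 0.0559, 0.089 and 0.115. Over all features, the difference of the changes passed with 57.9% in the higher direction, against 41.2% with normexp and 44.0% with the authors' values. The median over all features in reprogrammed lung minus adult lung was 0.10, against -0.01 with quantile normalization. Itgb1bp2 was not above background on every array.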

Other observations

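Of 7 integrin genes named by a letter, 5 were tested. In limma 1 was higher in reprogrammed lung than in adult lung, 2 were higher in reprogrammed mammary than in adult lung and 2 were lower in adult lung than in adult mammary, while 23.4%, 26.1% and 28.5% of all features passed. Itgav, the alpha subunit shared by several receptors for vitronectin and fibronectin, stood at -0.88, 0.36 and 0.85 in reprogrammed lung, 1.03, 0.54 and 0.92 in reprogrammed mammary, -0.62, -0.52 and -0.82 in adult lung and 0.79, 0.69 and 0.46 in adult mammary. Reprogrammed lung replicate 1 lay below adult lung, and the other arrays outside adult lung lay above it. The difference was 1.48 ± 0.36 log2 units in reprogrammed mammary minus adult lung (limma adjusted p = 0.0126) and -1.30 ± 0.36 in adult lung minus adult mammary (adjusted p = 0.0224). With slide as a block both were lost, at 1.06 (adjusted p = 0.161) and -0.90 (adjusted p = 0.209). The first was also lost without reprogrammed mammary replicate 1, and the second without any 1 adult lung array or adult mammary replicate 1 or 2 (adjusted p = 0.0527 to 0.0711). In reprogrammed lung minus adult lung Itgav was 0.76 (adjusted p = 0.167), and 1.26 (adjusted p = 0.00225) without reprogrammed lung replicate 1. Itgbl1, a secreted protein related to beta subunits, stood at -1.70, -0.94 and 0.93 in reprogrammed lung, -1.09, -1.27 and -0.53 in reprogrammed mammary, -4.10, -4.41 and -4.41 in adult lung and -0.71, -1.43 and -2.17 in adult mammary. Adult lung was the lowest on every array, with a difference of 3.74 ± 0.59 in reprogrammed lung minus adult lung (adjusted p = 0.00134), or 1.86 (adjusted p = 0.0142) after normexp. The lowest levels above background on the adult lung arrays were -4.58, -5.09 and -5.12. Itgbl1 lay near them there, so the size of its difference is uncertain. The leukocyte subunit Itgal stood at 1.85, -0.83 and -0.83 in reprogrammed lung, -0.44, 1.56 and -0.89 in reprogrammed mammary, 0.87, 1.47 and 1.31 in adult lung and -1.06, -1.28 and 0.50 in adult mammary. Its highest array in each group other than adult lung was that of Itgb2, and it did not pass in any comparison.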
